A study of Mus musculus with 6 samples.

Results

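The genes described here are the WNT ligands, their receptors and antagonists, and the core of the intracellular WNT pathway, measured in a stromal cell line after short stimulation with FGF2 or BMP4. They were chosen by name, as every WNT, FZD, SFRP and DKK gene of the array and a fixed set of coreceptors, transducers, transcription factors and feedback inhibitors, which gave 57 genes of the 30854 gene names on the array, covered by 104 probes. TCF7L1 was on the set but does not occur as a name on the array. PA6 cells, a murine stromal line that serves as a feeder layer for embryonic stem (ES) cells, were kept as confluent pure cultures in serum-free medium and stimulated for 3 h. The groups received FGF2 (20 ng/ml), BMP4 (10 ng/ml by the labels) or nothing (-GFs). Each group had 2 wells of this 1 line, read on 6 mouse whole-genome Illumina bead arrays. By the labels, each replicate comprised 1 well of every group. In an alternative fit the arrays were paired by the replicate number. The sample titles give only this number, and the differences between replicates correlated across genes between groups.

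WNT proteins are secreted, lipid-modified ligands that bind frizzled receptors. With the coreceptors LRP5 and LRP6, canonical ligands stop the destruction complex of AXIN, APC and GSK3B from degrading β-catenin, which then enters the nucleus and acts with TCF/LEF factors on target genes such as AXIN2. Other ligands, WNT5A among them, act mainly through the receptors ROR1, ROR2 and RYK without β-catenin, and stromal cells of many tissues are known as a source of both ligands and secreted antagonists.

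The arrays gave bead intensities, in arbitrary units, whose median ran from 153.4 on the array of BMP4 replicate 1 to 168.1 on that of -GFs replicate 1. A probe was taken as detected on an array when its deposited detection p, the share of negative control probes that were as bright, was under 0.05. Between 15509 and 16459 of the 45281 probes were detected per array, and the dimmest detected probe had an intensity of 180.1 to 200.9. Levels are given below as log2 of the normalized intensity, on which a step of 1 is a doubling, and they compare arrays for 1 probe, not different genes. A gene was tested if both arrays of some group detected a probe of it, and 11872 genes were. Of markers chosen to check the cells, 9 of 10 mesenchymal stromal genes were detected on all 6 arrays, against 1 of 6 embryonic stem (POU5F1), 1 of 6 endothelial (TEK), 0 of 6 neural, 1 of 6 epithelial (CDH1) and 1 of 6 haematopoietic genes (CD14).

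Of the 57 members, 24 were tested. Another 7 had a probe detected on some array but not on both arrays of a group, and 26 were never detected by any probe. Probes of the 33 untested members had intensities of 88.4 to 253.5, and the brightest of them were above the dimmest detected probes. The tested members were spread over all roles. They were 4 of 19 WNT ligands, the only acylating enzyme, 5 of 10 frizzled receptors, 4 of 5 coreceptors and other receptors, 3 of 10 secreted antagonists, 4 of 7 cytoplasmic transducers, 1 of 3 TCF/LEF factors and both feedback inhibitors. An undetected probe says only that its signal did not stand out from the negative controls.

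**Figure D1:**
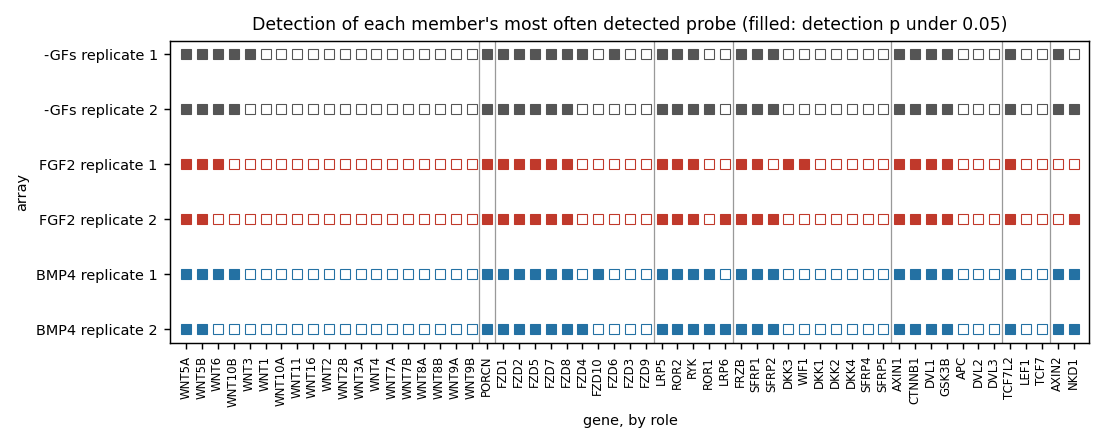
Detection of the 57 members on the 6 arrays, for the probe of each gene that was detected most often. Columns are genes grouped by role, rows are arrays, and a filled square marks a detection p under 0.05. Of the ligands, WNT5A and WNT5B have 6 filled squares, and 14 of the 19 have none.

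With FGF2, 3 members were called lower (log2 fold change below -1 and limma adjusted p under 0.1) and 0 were called higher. Over all genes tested, 1.25% were called lower and 2.28% higher. The members called were the ligand WNT5B, the receptor FZD2 and the feedback inhibitor AXIN2. AXIN2 was detected on neither FGF2 array and was tested only through the -GFs and BMP4 arrays, where it was high. Where detection on all 6 arrays was required, the members called lower were FZD2 and WNT5B, with 140 of 9707 genes called lower. In RNA from whole wells, fewer cells of a type and less RNA per cell cannot be told apart. Without a demand on the size of the change, the transcription factor TCF7L2 also passed, which made 4 members lower (5.78% of all genes), and 2 members, the ligand WNT5A and the receptor ROR2, were higher (6.03% of all genes). The largest rise of a member was 0.66, and at an unadjusted limma p under 0.05 there were 3 members higher (11.2% of all genes) and 7 lower (12.1% of all genes). The median log2 fold change of the 24 tested members was -0.24, against -0.02 over all genes tested, and 16 of them (66.7%) had a negative value, as had 52.5% of all genes. The 9 tested mesenchymal stromal markers had a median of -0.26 with 8 negative values, and 0 of them passed the adjusted p. Over the 18 members detected on all 6 arrays the median was -0.19, and -0.03 over all genes so detected.

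With the replicate block (a paired fit, in which the model has a term for the replicate), 4 members were higher and 11 lower at an adjusted p under 0.1, where 18.1% of all genes were higher and 19.6% lower. DVL1 and FZD1 joined the members that were higher, and CTNNB1, FZD5, FZD7, PORCN, ROR1, SFRP1 and WNT10B those that were lower. Of these, FZD5, FZD7, PORCN and SFRP1 did not pass when the block was combined with neqc, a normalization that subtracts the background. WNT10B and ROR1 were detected on neither FGF2 array. WNT10B was tested only through the -GFs arrays, and ROR1 only through the BMP4 arrays. The ROR1 mean in -GFs (7.54) did not exceed the mean of the lowest detected signals on the FGF2 arrays (7.59). The calls with a change beyond 1 were the same 3 genes in the paired fit. Of the 9 stromal markers, 4 passed in it.

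With BMP4, 0 of the 24 members were called by limma, and 0 passed the adjusted p in either direction. Over all genes, 1 gene was called (0.00842%). At an unadjusted p under 0.05 there were 0 members, with 1.81% of all genes, and 0 members by the methods' t-test. With the replicate block, 0 members passed the adjusted p, with 0.219% of all genes passing, and 3 had an unadjusted p under 0.05, as had 7.02% of all genes. The members' log2 fold changes with BMP4 lay between -0.27 and 0.41, with a median of -0.02. A missed threshold with 2 arrays per group does not show that these genes were unaffected. The direct comparison of both factors had 3 members called, WNT5B, FZD2 and AXIN2, all lower with FGF2 (3.07% of all genes called in either direction). At the adjusted p alone there were 6 members (9.06% of all genes), the same 6 as against -GFs, and with the replicate block 15 (34.1% of all genes). The contrasts against -GFs share the -GFs arrays, and the FGF2 arrays enter both of their own contrasts.

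**Figure D2:**
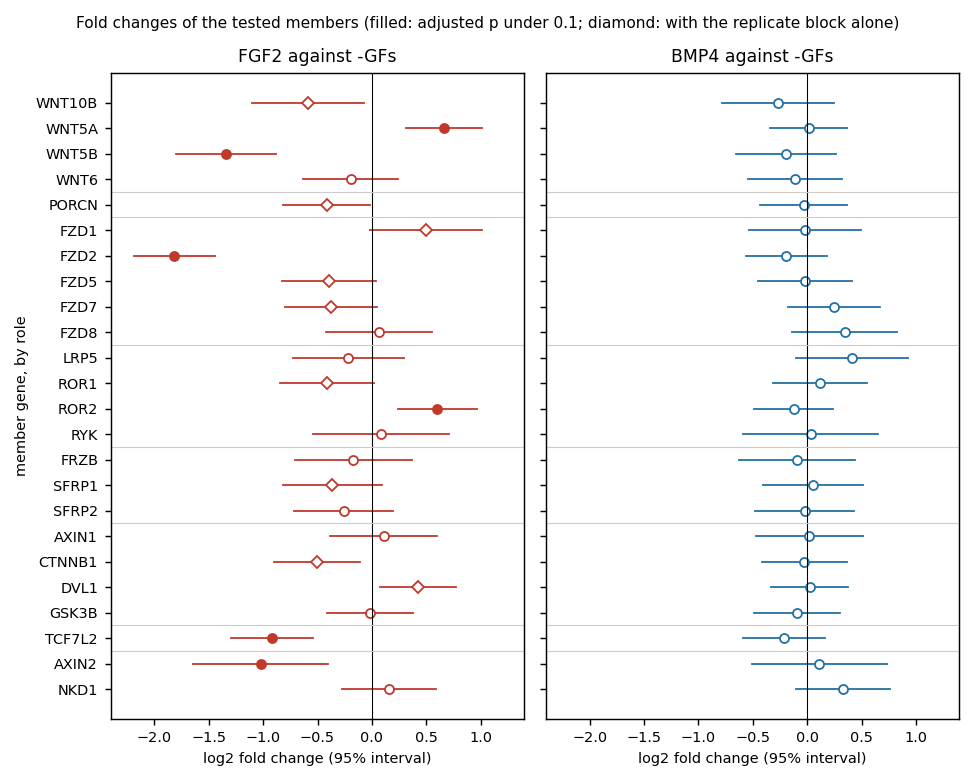
Log2 fold changes of the 24 tested members, with 95% intervals from limma, for FGF2 (left) and BMP4 (right) against -GFs. Filled points pass an adjusted p of 0.1, open diamonds pass it with the replicate block alone, and grey lines separate the roles. FZD2 at -1.82 and WNT5B at -1.34 lie farthest from 0 with FGF2, and with BMP4 every member's interval includes 0.

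Among the ligands, WNT5B and WNT5A, which are close relatives that signal mainly without β-catenin, moved in opposite directions with FGF2. The WNT5B probe read 9.69 and 9.70 in -GFs, 8.11 and 8.60 with FGF2, and 9.44 and 9.56 with BMP4. Both FGF2 arrays lay below all 4 others. The level was 2.54-fold lower with FGF2 than in -GFs, a log2 fold change of -1.34 ± 0.19 (SE, n = 2 per group, limma adjusted p = 0.0158). Without the array of FGF2 replicate 1 it was -1.10 with an adjusted p of 0.106. Against BMP4 the log2 fold change was -1.15 (adjusted p = 0.0268), and it no longer passed without FGF2 replicate 1 (0.159), BMP4 replicate 1 (0.107) or BMP4 replicate 2 (0.127).

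The WNT5A probe with the largest signal read 10.25 and 10.30 in -GFs, 10.91 and 10.96 with FGF2, and 10.39 and 10.18 with BMP4. Both FGF2 arrays stood above all others. The rise was 1.58-fold, a log2 fold change of 0.66 ± 0.15 (SE, adjusted p = 0.0509). A second detected probe of WNT5A gave 0.61 ± 0.16 (adjusted p = 0.075 in the fit of all probes), and the last of its probes was detected on 1 array. Against BMP4 the second probe had 0.41 and did not pass in that fit (limma adjusted p = 0.21, 0.0484 with the replicate block). The rise of the first probe was nearly the same in both replicates, 0.67 and 0.66. Its size was also kept when either -GFs or FGF2 array was left out (0.64 to 0.69), while the adjusted p then missed the threshold (0.143 and 0.140 without -GFs replicates 1 and 2, 0.215 and 0.270 without FGF2 replicates 1 and 2). Against BMP4 the log2 fold change was 0.65 (adjusted p = 0.0612), which was missed without either FGF2 or either BMP4 array.

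**Figure D3:**
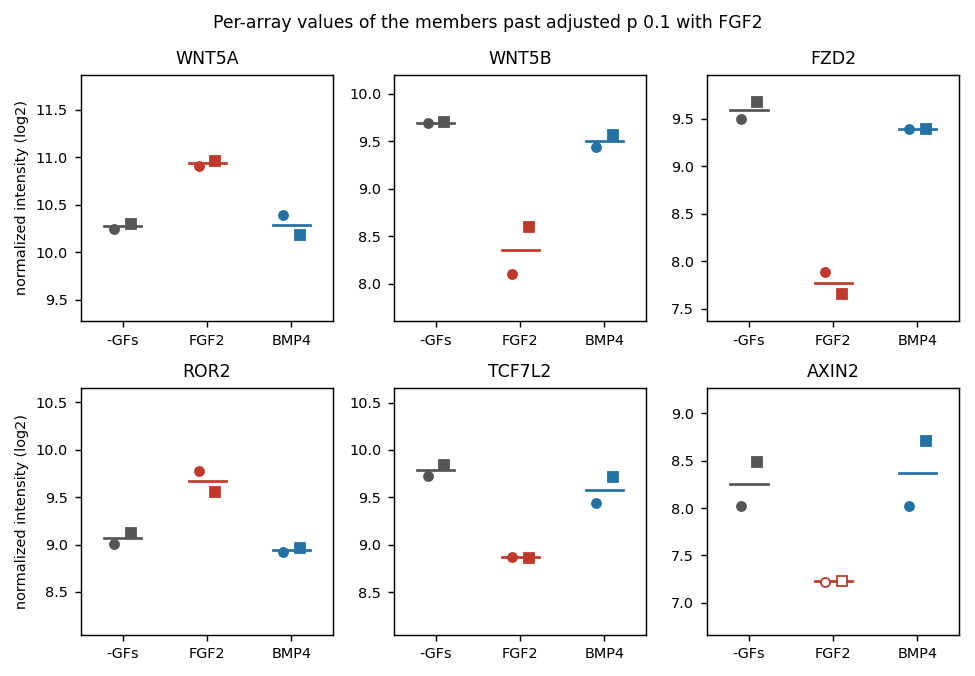
Normalized log2 intensity of the 6 members past an adjusted p of 0.1 with FGF2, on each of the 6 arrays. Circles are replicate 1, squares replicate 2, bars the mean of the 2 arrays, open symbols arrays on which the probe was not detected, and every panel spans the same range of log2 values. In each panel the 2 FGF2 arrays lie beyond the 4 others, above them for WNT5A and ROR2 and below them for WNT5B, FZD2, TCF7L2 and AXIN2.

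WNT10B, a canonical ligand known to restrain adipocyte formation, was detected on both -GFs arrays (8.17 and 7.74), on 1 BMP4 array (7.91, the other at 7.46) and on neither FGF2 array (7.38 and 7.36). Its mean was at least 1.29-fold lower with FGF2 than in -GFs, which did not pass without the replicate block (limma adjusted p = 0.166, 0.00584 with the block). On -GFs replicate 2 its raw intensity of 205.5 was close to the dimmest detected probe of that array (189.5). The bound sets the mean of the bright group against the lowest signal among detected probes on each dim array, or the probe's own signal where that was higher. The WNT6 probe lay at the edge of detection, with intensities of 219.3 and 197.8 in -GFs, 193.1 and 165.9 with FGF2, and 206.2 and 173.0 with BMP4. It was detected on both -GFs arrays and on 1 array of each other group, and its log2 fold change was -0.20 ± 0.18 (SE) with FGF2 (adjusted p = 0.575) and -0.11 with BMP4. The other 2 probes of WNT6 were not detected. WNT3 was detected on 1 array, -GFs replicate 1, and WNT4 and WNT10A on 0, with no intensity above 219.9 for WNT3, 199.3 for WNT4 or 181.2 for WNT10A. WNT1, WNT2, WNT2B, WNT3A, WNT7A, WNT7B, WNT8A, WNT8B, WNT9A, WNT9B, WNT11 and WNT16 were not detected on any array.

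PORCN, the membrane-bound acyltransferase that attaches the lipid to WNT ligands, was detected on all 6 arrays. Its values were 10.36 and 10.65 in -GFs, 10.14 and 10.04 with FGF2, and 10.37 and 10.58 with BMP4. The log2 fold change with FGF2 was -0.42 ± 0.17 (SE, adjusted p = 0.198), and with the replicate block it passed (0.0372). A dimmer probe of PORCN, detected on 5 arrays, gave -0.13 (adjusted p = 0.746, and 0.516 with the block).

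FZD2 had the lowest log2 fold change of all members. Its probe read 9.50 and 9.67 in -GFs, 7.88 and 7.66 with FGF2, and 9.40 and 9.40 with BMP4, so that the FGF2 arrays stood far below the 4 others. The level was 3.53-fold lower with FGF2 than in -GFs, a log2 fold change of -1.82 ± 0.16 (SE, adjusted p = 0.00463), with -1.62 and -2.02 in the 2 replicates. The call held without each array in turn, with -1.93 to -1.71. On the FGF2 arrays the raw intensities of 235.0 and 200.4 were close to the dimmest detected probes of those arrays (190.5 and 192.7). Where the background was subtracted (neqc), the log2 fold change was -2.88 (adjusted p = 0.0133). Against BMP4 it was -1.63 (adjusted p = 0.00611), and with BMP4 against -GFs -0.19, with a 95% interval of -0.56 to 0.18.

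The other 4 tested frizzled receptors did not pass without the replicate block. FZD1 read 8.26 and 8.48 in -GFs, and 8.58 and 9.15 with FGF2, a log2 fold change of 0.50 ± 0.22 (SE, adjusted p = 0.225, 0.0169 with the block). FZD7 had -0.37 ± 0.18 (adjusted p = 0.26, 0.0579 with the block) and FZD5 -0.40 ± 0.18 (0.249, 0.0611 with the block). Without each array in turn, the values ran from 0.21 to 0.78 for FZD1, from -0.57 to -0.18 for FZD7 and from -0.59 to -0.20 for FZD5. A second detected probe of FZD5, near the background, had -0.06. FZD8 had 0.06 ± 0.20 and passed neither fit. Of the receptors of unclear level, FZD4 was detected on 2 arrays (-GFs replicate 1 and BMP4 replicate 2), FZD6 and FZD10 on 1 array each, and FZD3 and FZD9 on 0. The highest intensity of any probe was 234.1 for FZD4 and 253.5 for FZD6.

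ROR2, a receptor tyrosine kinase-like protein that binds WNT5A, rose with FGF2. Its probe read 9.0 and 9.12 in -GFs, 9.78 and 9.55 with FGF2, and 8.92 and 8.96 with BMP4. Both FGF2 arrays lay above all others. The rise was 1.52-fold, a log2 fold change of 0.60 ± 0.15 (SE, adjusted p = 0.0708, 0.0039 with the replicate block). This was the pass closest to its threshold together with AXIN2. It was missed with neqc (0.102), median scaling (0.123), only the 4 arrays compared (0.107) and the trend and robust options of limma (0.103), and on leaving out any of the 6 arrays (0.107 to 0.321), with a log2 fold change of 0.49 or more in each. Against BMP4 it was 0.73 (adjusted p = 0.0498), which was missed without either FGF2 or either BMP4 array.

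ROR1, a relative of ROR2, was detected on both BMP4 arrays (7.68 and 7.62), on -GFs replicate 2 (7.75, with 7.32 on replicate 1) and on neither FGF2 array (7.11 and 7.13). Its adjusted p for FGF2 was 0.228, and 0.0438 with the block, and no fold is given because the level in -GFs was not above the bound. LRP5 was detected on all 6 arrays by 1 of its 4 probes. It read 8.37 and 8.25 in -GFs, 7.84 and 8.35 with FGF2, and 8.56 and 8.88 with BMP4, a log2 fold change of -0.22 ± 0.22 (SE) with FGF2 (adjusted p = 0.606) and of 0.41 with BMP4 (95% interval -0.10 to 0.92). The value with FGF2 was -0.53 in replicate 1 and 0.10 in replicate 2, and ran from -0.47 to 0.04 without each array in turn. LRP5 was lower with FGF2 than with BMP4 only where the replicate block was fitted (-0.63, adjusted p = 0.00611 with the block, 0.159 without). With the block and neqc the log2 fold change was -1.07, and the gene was called. LRP6 was detected on 2 arrays (FGF2 replicate 2 and BMP4 replicate 2), with intensities of at most 217.5. RYK, detected by both of its probes, had log2 fold changes of 0.08 and 0.24 with FGF2 (adjusted p = 0.88 and 0.531).

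The secreted antagonists that were tested, SFRP1, SFRP2 and FRZB, are soluble proteins with a frizzled-like domain that bind WNT ligands. SFRP1 had raw intensities of 25303.5 to 42572.9, and read 15.20 and 14.96 in -GFs, 14.69 and 14.74 with FGF2, and 15.35 and 14.92 with BMP4. Its log2 fold change with FGF2 was -0.36 ± 0.19 (SE, adjusted p = 0.312, 0.0731 with the replicate block), and that of its other probe -0.53 ± 0.26 (0.282, 0.0187 with the block). FRZB had -0.17 ± 0.23 and SFRP2, at the edge of detection, -0.26 ± 0.19. Both passed in neither fit. DKK3 and WIF1 were detected on 1 array each, FGF2 replicate 1 in both cases, and DKK1, DKK2, DKK4, SFRP4 and SFRP5 on 0.

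Of the cytoplasmic transducers, AXIN1, CTNNB1, DVL1 and GSK3B were detected on all 6 arrays, and none passed in the main fit. CTNNB1, which encodes β-catenin, read 13.07 and 12.86 in -GFs, 12.54 and 12.38 with FGF2, and 13.05 and 12.83 with BMP4. The FGF2 arrays lay below the 4 others. The log2 fold change was -0.50 ± 0.16 (SE, adjusted p = 0.127), and it passed with the block (0.00954) and with median scaling (-0.60). Of its other probes, one detected on all arrays had -0.32 (adjusted p = 0.258, 0.102 with the block) and one near the background 0.20 (0.468). Averaged over its kept probes the log2 fold change was -0.21 and did not pass. DVL1, a dishevelled protein that relays the signal from frizzled receptors, had 0.42 ± 0.15 (adjusted p = 0.147, 0.0296 with the block). For AXIN1 and GSK3B, both parts of the destruction complex, the log2 fold changes were 0.11 ± 0.21 and -0.02 ± 0.17. A second probe of AXIN1 had -0.05. APC, DVL2 and DVL3 were not detected by any of their probes.

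TCF7L2 was the one detected TCF/LEF factor. The probe detected on all arrays read 9.73 and 9.85 in -GFs, 8.88 and 8.86 with FGF2, and 9.44 and 9.71 with BMP4. Both FGF2 arrays lay below the 4 others. The level was 1.89-fold lower with FGF2 than in -GFs, a log2 fold change of -0.92 ± 0.16 (SE, adjusted p = 0.0258). With median scaling or neqc the change exceeded 1, and the gene was called. The adjusted p missed the threshold when -GFs replicate 2 (0.101) or either FGF2 array (0.165 and 0.188) was left out. Against BMP4 the log2 fold change was -0.71 (adjusted p = 0.0583), which was missed without either FGF2 or either BMP4 array. The other 4 probes of TCF7L2 were detected on 1 array or none, and LEF1 and TCF7 were not detected.

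AXIN2, an inhibitor of the pathway that β-catenin itself induces and that is widely read as its target gene, was detected on both -GFs arrays (8.03 and 8.48) and both BMP4 arrays (8.02 and 8.71) and on neither FGF2 array (7.23 and 7.23). It was at least 1.59-fold lower with FGF2 than in -GFs (adjusted p = 0.0708, 1.00e-04 with the replicate block) and at least 1.71-fold lower than with BMP4 (0.0618, 4.2e-05 with the block). The fitted log2 fold change of -1.02 rests on signals in the background, and with neqc it was -2.21. The adjusted p missed the threshold when -GFs replicate 2 (0.227) or either FGF2 array (0.271 and 0.304) was left out, and against BMP4 without either FGF2 array (0.27 and 0.309) or BMP4 replicate 2 (0.21). NKD1, which binds dishevelled and is another inhibitor induced by the pathway, was detected on 4 arrays and had 0.16 ± 0.18 (SE, adjusted p = 0.66).

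Of the 24 tested members, 17 have a promoter window in the RefSeq annotation of GRCm38.p6, from 250 bases before to 50 after a gene's start. The windows of 4 of the members that passed with FGF2 are shown, and WNT5A and FZD2 have no such window. The sequence of genes that fell can so be set beside that of one that rose. For WNT5B the most upstream of 3 windows is given (chr6:119544298-119544597, minus strand), for TCF7L2 the more upstream of 2 (chr19:55741560-55741859, plus strand), for AXIN2 chr11:108920099-108920398 (plus strand) and for ROR2 chr13:53286075-53286374 (minus strand). Capitals mark matches on either strand to the letters of a TCF/LEF motif (CTTTGA), an AP-1 motif (TGAGTCA), an ETS motif (CCGGAAG) or an EGR motif (GCGNGGGCG), which do not overlap here.
WNT5B: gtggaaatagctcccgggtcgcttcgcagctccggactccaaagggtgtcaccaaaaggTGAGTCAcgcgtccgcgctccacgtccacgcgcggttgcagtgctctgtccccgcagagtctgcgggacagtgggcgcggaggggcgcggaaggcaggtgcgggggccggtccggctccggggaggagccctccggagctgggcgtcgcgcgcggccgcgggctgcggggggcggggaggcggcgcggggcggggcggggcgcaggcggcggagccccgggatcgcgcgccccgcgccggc
TCF7L2: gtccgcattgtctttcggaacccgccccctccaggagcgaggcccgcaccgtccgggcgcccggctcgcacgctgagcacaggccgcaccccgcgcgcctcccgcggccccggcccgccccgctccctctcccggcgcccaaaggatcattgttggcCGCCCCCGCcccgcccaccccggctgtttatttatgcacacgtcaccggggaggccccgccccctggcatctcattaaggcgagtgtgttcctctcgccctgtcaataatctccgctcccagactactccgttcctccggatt
AXIN2: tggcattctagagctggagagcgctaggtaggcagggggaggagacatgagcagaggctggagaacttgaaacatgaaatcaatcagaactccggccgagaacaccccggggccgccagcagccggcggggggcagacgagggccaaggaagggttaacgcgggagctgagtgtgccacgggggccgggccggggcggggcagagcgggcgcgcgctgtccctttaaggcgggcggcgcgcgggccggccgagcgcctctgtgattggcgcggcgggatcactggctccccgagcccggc
ROR2: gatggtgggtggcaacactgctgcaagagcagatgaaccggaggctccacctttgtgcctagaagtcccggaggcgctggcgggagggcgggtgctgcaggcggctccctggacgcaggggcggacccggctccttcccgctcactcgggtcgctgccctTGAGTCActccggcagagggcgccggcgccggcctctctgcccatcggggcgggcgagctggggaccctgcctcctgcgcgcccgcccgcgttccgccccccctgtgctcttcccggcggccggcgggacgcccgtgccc
The AP-1 letters occur once in the window of WNT5B, which fell, and once in that of ROR2, which rose, and 5.2% of all 32851 windows of this length hold them. The EGR letters occur once in the window of TCF7L2, on the other strand, against 5.55% of all windows. None of the 4 windows holds the TCF/LEF letters, which 16% of all windows hold, or the ETS letters (8.86%). Another window of WNT5B, not printed, has 1 match to the TCF/LEF letters. A match is a description of the sequence, and binding was not tested.

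Other genes of the pathway were taken from 7 lists of 92 genes, of which 88 had a name on the array and 48 were tested. With FGF2, 8 were lower and 4 higher at an adjusted p under 0.1, and 6 and 2 of these were called. Over all genes these shares were 5.78%, 6.03%, 1.25% and 2.28%. With the replicate block, 10 were lower and 12 higher, where 19.6% of all genes were lower and 18.1% higher. Their median log2 fold change was -0.04, near that of all genes. With BMP4, 0 passed with or without the replicate block. The counts per list were 1 lower of 2 tested for R-spondins and receptor turnover, 1 lower of 1 for other extracellular inhibitors, 3 lower of 14 for nuclear cofactors, 3 lower of 13 for planar polarity and non-canonical genes, 1 higher of 11 for other cytoplasmic members, 3 higher of 6 for target genes outside the members, and none of 1 for ligand secretion. CXXC5, the cytoplasmic gene that was higher, was detected on 2 arrays, both of them FGF2 arrays. It was tested, and so counted among the 4 higher, only through the group in which it was high. With the replicate block, RSPO3 (-0.88) passed too among the R-spondins, and all 6 tested target genes and 5 of the 11 cytoplasmic members passed. Of the nuclear cofactors 4 of 14 passed, and of the planar polarity list 4 of 13, where 37.7% of all genes passed. These counts include MYC (a target gene), CXXC5 and ROCK1 (of the planar polarity list). Each of them was tested only because both FGF2 arrays detected it, and each was higher with FGF2. RSPO3, CXXC5, MYC and ROCK1 are named after their values were seen.

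The planar polarity genes PRICKLE1 and VANGL2 and the calcium-responsive transcription factor NFATC4 fell with FGF2. PRICKLE1 read 11.88 and 12.13 in -GFs and 10.39 and 10.58 with FGF2, a log2 fold change of -1.52 ± 0.20 (SE, adjusted p = 0.0133). VANGL2 had -1.03 ± 0.17 (0.0211) and NFATC4 -1.61 ± 0.18 (0.00852). BCL9L, a cofactor that links β-catenin to PYGO proteins, had -1.41 ± 0.15 (0.00808), with 12.11 and 12.34 in -GFs and 10.81 and 10.83 with FGF2. The R-spondin RSPO2, a secreted protein that keeps frizzled receptors at the cell surface, read 8.97 and 9.19 in -GFs, 8.13 and 8.04 with FGF2, and 9.53 and 9.57 with BMP4. It was called lower with FGF2, at the edge of the size threshold (adjusted p = 0.0177). It missed that threshold with quantile normalization, had -1.55 with neqc, and had -1.47 against BMP4 (0.00685). LRP4, a relative of LRP5 that binds secreted WNT inhibitors, had -1.16 ± 0.21 (0.0296). The adjusted p of PRICKLE1, VANGL2, RSPO2 and LRP4 missed the threshold when FGF2 replicate 1 (0.115, 0.157, 0.12 and 0.147) or FGF2 replicate 2 (0.111, 0.113, 0.162 and 0.223) was left out. Without -GFs replicate 1 the changes of VANGL2 (-0.95) and LRP4 (-0.92), and without -GFs replicate 2 that of RSPO2 (-0.89), were below the size needed for a call.

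Among the target genes outside the members, TBX3 and WISP1 were called higher, in the direction opposite to AXIN2. TBX3, a T-box repressor, read 7.87 and 7.98 in -GFs, 9.47 and 9.56 with FGF2, and 7.72 and 7.69 with BMP4, a log2 fold change of 1.59 ± 0.14 (SE, adjusted p = 0.00492). It was 2.43 with neqc, and where a gene's kept probes were averaged it was 0.86, which passed the adjusted p but was not called. WISP1, a matricellular protein, read 10.04 and 10.36 in -GFs, 11.60 and 11.85 with FGF2, and 10.19 and 10.82 with BMP4, with 1.52 ± 0.24 (adjusted p = 0.021). It missed the threshold without FGF2 replicate 1 (0.12) or 2 (0.178). CCND1, the cyclin of early G1 phase, also rose without being called (0.71 ± 0.18, adjusted p = 0.0737), and it is named after its values were seen. These genes respond to other pathways as well, and which signal moved them was not tested.

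**Figure D4:**
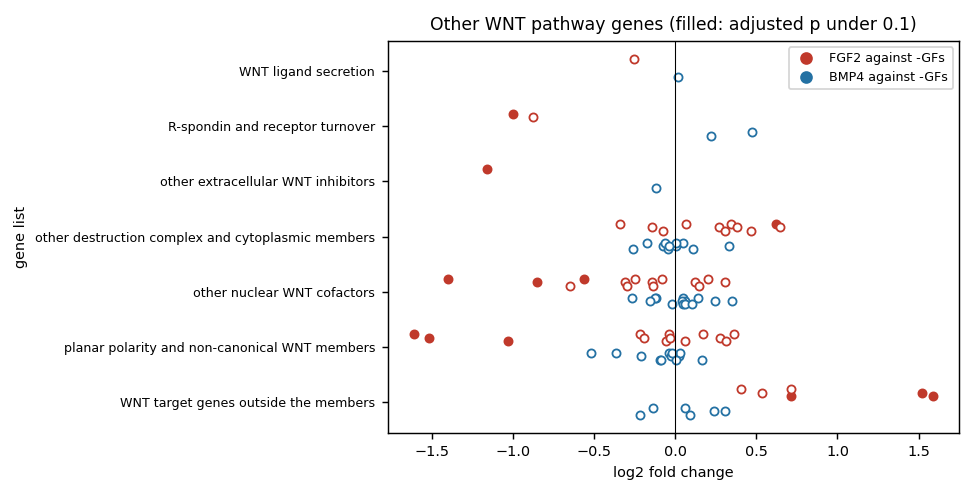
Log2 fold changes against -GFs of the tested genes of 7 further WNT pathway lists, with FGF2 in red and BMP4 in blue. Each point is a gene. The horizontal axis is the log2 fold change and filled points pass an adjusted p of 0.1. FGF2 points reach from -1.61 (NFATC4) to 1.59 (TBX3), and no BMP4 point is filled.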

How the data were processed

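The authors deposited bead intensities of each probe on a linear scale, without normalization between arrays, with detection p-values, and the submitters' notes name GenomeStudio 2011.01. The 9 columns without a heading and 6 leftover lines were not used. The cubic spline normalization of the study's methods was re-implemented in R 4.3.3 (452 quantiles per array, mean quantiles as target), followed by log2. A probe was kept when some group had a detection p under 0.05 on each of its 2 arrays, and the probe with the largest mean represented a gene. limma 3.58.1 (lmFit, eBayes) was fitted on all 6 arrays, with Benjamini-Hochberg adjustment over 11872 genes and calls at a log2 fold change beyond 1 and an adjusted p under 0.1. The members and lists were chosen with earlier results of these data known. The rule gave fold changes for members passing in any contrast in either fit, those measured by PCR in the study, and called pathway genes, and levels or detection for all members. Fold changes of the other tested members were added after their values were seen. According to the labels each replicate was 1 well per group, and differences between replicates correlated across genes between groups (0.602, 0.741 and 0.579 for the 3 pairs of groups), so a replicate block was fitted as an alternative, with 2 residual degrees of freedom against 3. The procedure was tested on simulated data. The study's methods give a different BMP4 dose for co-cultures, so the dose here is that of the labels. The precision is limited by 2 arrays per group. Columns were assigned to samples by the initials in their headings, and gene names are those of the array.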

Additional observations from a re-analysis of the deposited data

How the results depend on the processing

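With 2 arrays per group, counts near the threshold moved with the processing. The count of WNT members higher with FGF2 at the adjusted p, 2, was 1 with neqc, median scaling, only the 2 groups compared, or the trend and robust options, 4 with the replicate block or the replicate block with neqc, and 0 by the methods' t-test. The 4 members lower at the adjusted p became 11 with the replicate block, 7 with the replicate block with neqc and 0 by the t-test. The 3 called lower against -GFs, and the 3 called against BMP4, each became 5 with the replicate block with neqc and 0 by the t-test, which called 0 of all 11872 genes for FGF2. At an unadjusted p under 0.05, the t-test had 7 members with FGF2, and limma had 10. The cause of these shifts was not tested. Where detection on all 6 arrays was required, AXIN2 was left out. Then 3 members were lower at the adjusted p, and FZD2 and WNT5B were called, both against -GFs and against BMP4. Without each array in turn, the counts ran from 0 to 1 (higher), 1 to 4 (lower), 1 to 3 (called lower) and 1 to 3 (called against BMP4). A group with 1 array left was taken to vary like the others. Over all genes, too, fewer passed the adjusted p with FGF2 whenever an array was left out, and fewest without either FGF2 array. Higher and lower calls over all genes both fell there. Without a detection filter, 57 members were tested by construction. Over all genes, the split of higher against lower calls with FGF2 was 271 and 148, but 208 and 209 with median scaling and 432 and 362 with neqc. For BMP4, 0 members passed in every setting. No fold change past the threshold changed sign among the members and called pathway genes followed through the settings. CCND1, RSPO3, CXXC5, MYC, ROCK1 and the marker genes were not followed. Dim probes, AXIN2, ROR1, WNT6, WNT10B and FZD2 with FGF2 among them, are limited by the background.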

Other observations

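Of the genes of dividing cells, 0 of 7 passed the adjusted p with FGF2. Their median log2 fold change was -0.34, against -0.02 over all genes. With the replicate block 3 passed, BIRC5 (-0.71, adjusted p = 0.00181), CDC20 (-0.38, 0.0523) and PLK1 (-0.36, 0.0575), and 37.7% of all genes passed in that fit. The summed raw intensity of the list was 8455.5 and 5518.2 in -GFs, 5829.4 and 4036.0 with FGF2, and 6170.3 and 5497.1 with BMP4. FGF2 had the lowest sum of the groups in each replicate, and every group had the higher sum in replicate 1.

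The adipocyte list had a median of -0.09 with FGF2 (6 of 10 genes tested, 0 passing without the block and 1 with it, where 11.8% and 37.7% of all genes passed). Of its 10 genes, 5 (ADIPOQ, LPL, CFD, PLIN and CIDEC) were brighter on every replicate 2 array than on every replicate 1 array, as were 5.73% of all probes. The other 5, DLK1, PPARG and the undetected FABP4 among them, did not separate the replicates. ADIPOQ, named after its values were seen, had raw intensities of 156.0, 157.8 and 148.7 on the replicate 1 arrays of -GFs, FGF2 and BMP4, and of 2453.5, 1658.1 and 2372.4 on those of replicate 2. What set the replicates apart was not tested, nor the part of these genes in the changes of WNT members.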
